A study of Mus musculus with 2 samples.

Results

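The genes described here are 10 chaperones and chaperone partners: Hsph1, Hsp90aa1, Hsp90ab1, Hspa8, Hspd1, Hspe1, Chordc1, Stip1, Ptges3 and Dnaja1, out of 28692 genes counted in peritoneal cells of germ-free mice. They were chosen by symbol, and all 10 symbols were present in the gene lists of both libraries. The choice was made with their levels and detection in B-1, B-2, T, NK, Cd209a and macrophage cells of both genotypes already known, so every level, share and ratio below is a description and none was tested. The working name of the group, cytosolic heat shock chaperones, does not hold for Hspd1 and Hspe1, whose products form the chaperonin of mitochondria.

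Both groups were germ-free C57BL/6 mice aged 10 weeks, that is, mice raised without microbes. WT mice carried no deletion named in the labels, and Xbp1dIEC mice lack Xbp1, which drives 1 arm of the response to misfolded protein in the endoplasmic reticulum, in intestinal epithelial cells; the Cre line that drives the deletion is not given in the sources used here. Cells from the peritoneal cavity of 4 male mice were combined for each genotype, 8700 cells were loaded per genotype on a droplet system (10x Genomics, 3′ chemistry v2), and the result was 1 WT and 1 Xbp1dIEC library. Genotype, pool of mice and library therefore cannot be told apart, no difference has a replicate check, and all 95% intervals cover counting error only. The profiled cells are not the tissue in which Xbp1 is deleted, so Xbp1 does not check the labels. It was counted in both libraries, at 27.6 CPM (UMIs of the gene per 1000000 UMIs of the class) in WT and 43.4 CPM in Xbp1dIEC B-1 cells and at 110 and 118 CPM in macrophages.

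Chaperones of the HSP70 and HSP90 families bind unfolded or partly folded proteins in cycles driven by ATP. J-domain proteins such as Dnaja1 hand clients to HSP70, exchange factors such as the HSP110 protein encoded by Hsph1 release the nucleotide again, and Stip1 joins HSP70 to HSP90 so that a client can be passed on. Under heat or other proteotoxic stress, heat shock factor HSF1 binds repeated nGAAn units in the promoters of many of these genes and raises their transcription, while Hspa8 and Hsp90ab1 are known as the constitutive forms of their families.

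Because these promoters are where that control is known to act, the RefSeq windows of 250 bases before to 50 bases after the annotated start (GRCm38.p6) were searched for a heat shock element of 3 units, GAANNTTCNNGAA or TTCNNGAANNTTC, on both strands, overlaps allowed. Windows were held for 7 of the 10 members; Hsp90aa1, Hsp90ab1 and Hspa8 had none in the table. The element was found in 4 of those 7 genes (Hsph1, Hspd1, Hspe1 and Chordc1), and in 198 of all 32851 windows (0.603%), which belong to 179 of 27025 symbols (0.662%). The shorter motifs of 2 units, GAANNTTC or TTCNNGAA, were found in 5 of 7 members. They were found in 15.1% of all windows, which belong to 4587 of 27025 symbols (17.0%). These are matches of letters, not measured binding sites, and a window with no match says nothing of the factor. Of the genes with a window in the other chaperone lists described below, Dnajb6 was the 1 gene with a match of 3 units. Not every gene of those lists could be searched. Windows were held for 11 of 12 HSP90 co-chaperones, 10 of 14 HSP70 family genes and 17 of 19 J-domain genes. They were held for 1 of 3 heat shock factors and 9 of 11 endoplasmic reticulum chaperones. The 3 windows that follow are shown because Hsph1 and Chordc1 had the 2 largest ratios among the members in B-1 cells and because Hspe1 shares its start region with Hspd1; capitals mark the stretch covered by matches of 3 units, and each is read 5′ to 3′ on the gene's strand.
Hsph1, chr5:149636287-149636586, minus strand: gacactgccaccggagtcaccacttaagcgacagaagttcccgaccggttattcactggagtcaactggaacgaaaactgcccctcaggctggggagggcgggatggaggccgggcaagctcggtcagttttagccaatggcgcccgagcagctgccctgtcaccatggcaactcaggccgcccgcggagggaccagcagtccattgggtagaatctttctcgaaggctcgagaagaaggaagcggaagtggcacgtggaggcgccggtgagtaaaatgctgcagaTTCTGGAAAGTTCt
Chordc1, chr9:18292017-18292316, plus strand: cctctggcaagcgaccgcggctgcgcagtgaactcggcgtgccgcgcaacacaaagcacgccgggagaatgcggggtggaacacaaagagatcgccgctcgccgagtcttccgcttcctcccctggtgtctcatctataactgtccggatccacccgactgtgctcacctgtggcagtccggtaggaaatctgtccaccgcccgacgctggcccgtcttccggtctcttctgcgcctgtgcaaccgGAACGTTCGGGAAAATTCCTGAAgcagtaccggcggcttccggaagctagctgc
Hspe1, chr1:55087898-55088197, plus strand: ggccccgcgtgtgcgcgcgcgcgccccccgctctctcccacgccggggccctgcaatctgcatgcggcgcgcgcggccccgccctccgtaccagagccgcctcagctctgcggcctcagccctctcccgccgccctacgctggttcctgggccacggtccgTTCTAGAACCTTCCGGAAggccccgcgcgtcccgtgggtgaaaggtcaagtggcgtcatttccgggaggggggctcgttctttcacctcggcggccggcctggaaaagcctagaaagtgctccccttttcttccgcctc
Counted from the annotated transcription start of the window shown, the match in Hsph1 began at base 37. Hsph1 has a second annotated start, from which the same match began at base 16. In Chordc1, 3 overlapping matches began at bases -4, 2 and 7, and in Hspe1, 2 overlapping matches began at bases -89 and -84. Hspe1 and Hspd1 are annotated head to head on chromosome 1 (GRCm38, 55088132 to 55091307 on the plus strand and 55077835 to 55088243 on the minus strand), so the matches in the second Hspd1 window are the same bases read on the other strand.

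The WT library held 6204 barcodes with 56229330 UMIs and the Xbp1dIEC library 6246 with 49703442, and 58 barcode sequences occurred in both. After filters and removal of called doublets, 6058 and 6111 cells remained. Cells with a mitochondrial share of 5% or more of UMIs were 18.2% of the Xbp1dIEC and 6.73% of the WT library. Cells were placed in classes by UMIs of marker genes, which gave 350 WT and 561 Xbp1dIEC B-1 cells, 926 and 778 B-2 cells, 269 and 215 T cells, 21 and 24 NK cells, 88 and 82 Cd209a cells, and 2800 and 2729 macrophages. Markers that the gates did not use followed the names for macrophages and NK cells, less so for B-1 cells and least for T cells: the summed level of 6 macrophage markers was 5199 and 5341 CPM in macrophages against 152 and 128 CPM in B-1 cells, and that of 4 NK markers was 21314 and 23345 CPM in NK cells. The 5 B-1 markers summed to 5019 and 4819 CPM in B-1 cells and to 2467 and 3049 CPM in B-2 cells. S100a6 alone gave 4509 and 4330 CPM of the sum in B-1 cells. Each of the 5 was higher in B-1 than in B-2 cells in both libraries. Cd9 and Ahnak were higher still in macrophages. Cd9 was at 570 and 544 CPM there against 98.5 and 66.8 CPM in B-1 cells. The 4 T markers summed to 1429 and 1420.0 CPM in T cells and to 1168 and 1171 CPM in NK cells, and 1 of them, Lck, was at 428 CPM in WT T cells and at 520 CPM in WT NK cells. The sum of the T markers therefore does not separate the T from the NK gate, but single genes differed. Lat was at 283 and 273 CPM in T cells and at 12.7 and 38.6 CPM in NK cells. Il7r was at 370 and 417 CPM in T cells and at 178 and 270 CPM in NK cells. Cd2 was higher in NK cells in both libraries, and Lck in WT only. The 4 NK markers summed to 3679 and 4564 CPM in T cells. Prg2 and Epx, which define eosinophils, were at 0 in these classes, and the neutrophil list summed to at most 16.8 CPM.

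Hsph1 had the largest ratio of the 10 members in B-1 cells. There it was counted 51 times in WT and 436 times in Xbp1dIEC, which is 15.1 CPM (95% Poisson interval 11.3 to 19.9) and 73.0 CPM (66.3 to 80.2). The ratio was 4.59-fold, a log2 ratio of 2.20 with 1 CPM added to both levels (interval 1.85 to 2.72, exact conditional binomial, without the added CPM), and it ranked at place 2 of the 6071 genes tested in B-1 cells. The intervals of the 2 libraries lie far apart. The same gene was higher in Xbp1dIEC in the other classes with enough counts: 25.9 against 62.3 CPM in B-2 cells (log2 ratio 1.23, interval 1.00 to 1.54), 28.7 against 54.1 CPM in T cells (0.89, 0.24 to 1.60) and 19.0 against 41.6 CPM in Cd209a cells (1.09, 0.12 to 2.21). In Cd209a cells the 6 macrophage markers, none at 0, summed to 1826 CPM in WT and 1144 CPM in Xbp1dIEC, with Prg4 at 764 and 406 CPM and Timd4 at 82.0 and 41.6 CPM; their part in the Cd209a ratios of the members was not tested. In macrophages Hsph1 was at 12.6 and 22.2 CPM (log2 ratio 0.77, interval 0.62 to 1.01), place 2 of 6300 genes there. NK cells gave 1 and 5 UMIs, too few to read. In WT, Hsph1 was higher in T, B-2 and Cd209a cells than in B-1 cells, and every neighbouring pair of classes had overlapping intervals. The WT B-2 interval (22.2 to 30.1 CPM) nevertheless lay above that of WT B-1 cells, which was not its neighbour. In Xbp1dIEC, B-1 cells were the highest, with NK cells, B-2 cells, T cells, Cd209a cells and macrophages following in that order. The macrophage interval alone lay apart from its neighbour's there.

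**Figure D1:**
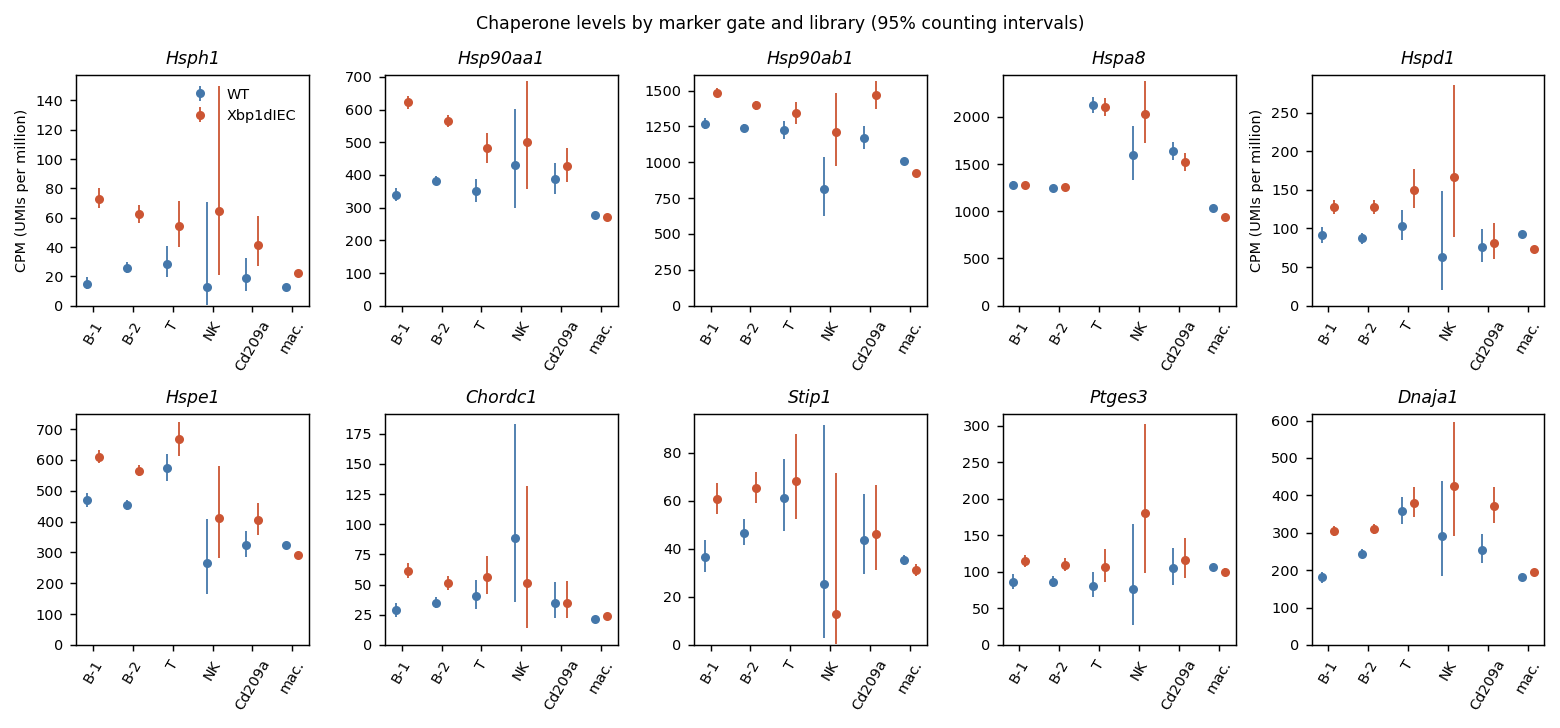
Levels of the 10 chaperone genes in the 6 marker-gated classes: the y axis is CPM (linear, from 0), each point is 1 class in 1 library, and bars are 95% Poisson intervals that cover counting error only. Hsph1 stands at 15.1 CPM in WT and 73.0 CPM in Xbp1dIEC B-1 cells, while Hspa8 stands at 1279 and 1280.5 CPM there.

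Both cytosolic HSP90 genes were higher in Xbp1dIEC B and T cells, and there the ratio of the inducible form exceeded that of the constitutive one, with intervals that do not overlap. Hsp90aa1, HSP90 alpha, was at 339.9 CPM in WT and 622 CPM in Xbp1dIEC B-1 cells (log2 ratio 0.87, interval 0.78 to 0.97). It was at 383 and 565 CPM in B-2 cells (0.56, 0.49 to 0.64) and at 351 and 482 CPM in T cells (0.46, 0.26 to 0.66). In macrophages the levels were 278 and 269.9 CPM, and the interval of the log2 ratio (-0.09 to 0.01) included 0. Hsp90ab1, HSP90 beta, was at 1268 and 1484 CPM in B-1 cells (0.23, 0.17 to 0.28), at 1240 and 1396 CPM in B-2 cells (0.17, 0.13 to 0.22) and at 1010.3 and 924 CPM in macrophages (-0.13, -0.15 to -0.10). In B-1 cells Hsp90aa1 made up 21.1% of the UMIs of both HSP90 genes in WT (Clopper-Pearson interval 20.1 to 22.2) and 29.6% in Xbp1dIEC (28.8 to 30.4). The same share went from 23.6% to 28.8% in B-2 cells and from 22.3% to 26.4% in T cells, while it was 21.6% and 22.6% in macrophages and 24.9% and 22.6% in Cd209a cells. B-1 cells had the highest Hsp90aa1 level of all classes in Xbp1dIEC, with an interval apart from that of B-2 cells, and in WT a level above that of macrophages alone, with an interval overlapping that of T cells.

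Of the HSP90 partners, Chordc1 and Stip1 differed most in B-1 cells. Chordc1, a zinc-binding HSP90 partner, was at 28.8 CPM in WT and 61.6 CPM in Xbp1dIEC B-1 cells (log2 ratio 1.07, interval 0.77 to 1.44), place 18 of 6071 genes. In B-2 cells it was at 35.0 and 51.1 CPM (0.54, 0.30 to 0.80), and in Cd209a cells it was nearly level at 35.1 and 35.2 CPM, with an interval of -0.90 to 0.90 that also covers large differences. Stip1 was at 36.8 and 60.8 CPM in B-1 cells (0.71, 0.43 to 1.03), at 46.8 and 65.3 CPM in B-2 cells (0.47, 0.26 to 0.70) and at 35.4 and 31.2 CPM in macrophages (-0.18, -0.32 to -0.04). Ptges3, the p23 protein that holds HSP90 in its ATP-bound form, was at 86.6 and 115 CPM in B-1 cells (0.40, 0.20 to 0.61), at 86.6 and 109.6 CPM in B-2 cells (0.34, 0.18 to 0.50) and at 106 and 100.4 CPM in macrophages (-0.08, -0.16 to -0.01). With the classes ordered by level, each neighbouring pair had overlapping intervals in both libraries for Ptges3 and for Stip1. Classes that were not neighbours could lie apart, as WT macrophages (102.7 to 110.3 CPM) and WT B-2 cells (79.6 to 94.1 CPM) did for Ptges3.

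Hspa8, the constitutive HSP70, had nearly the same level in both libraries over all B-1 and all B-2 cells, whereas its J-domain partner Dnaja1 was not. Hspa8 was at 1279 and 1280.5 CPM in B-1 cells (log2 ratio 0.00, interval -0.05 to 0.06), at 1243 and 1255 CPM in B-2 cells (0.01, -0.03 to 0.06) and at 2123 and 2103 CPM in T cells (-0.01, -0.10 to 0.07). T cells had the highest Hspa8 level and macrophages the lowest, 1036 and 935 CPM, in both libraries, though the intervals of T and NK cells overlap in Xbp1dIEC. As a fold, the counting interval in B-1 cells runs from 0.964 to 1.04. Split by mitochondrial share, Hspa8 was not level: its log2 ratio was 0.08 (0.02 to 0.13) in B-1 and 0.12 (0.08 to 0.17) in B-2 cells under 5% mitochondrial UMIs, and 0.23 (0.01 to 0.45) and -0.32 (-0.52 to -0.11) in those at 5% or more, which were a larger share of the Xbp1dIEC cells. Dnaja1 was at 181 and 305 CPM in B-1 cells (0.75, 0.62 to 0.89), at 244 and 309 CPM in B-2 cells (0.34, 0.25 to 0.44) and at 255 and 371 CPM in Cd209a cells (0.54, 0.25 to 0.83). In T cells it was at 358 and 381 CPM with an interval of -0.12 to 0.30, and in macrophages at 182 and 196 CPM (0.10, 0.05 to 0.16). WT B-1 cells had the lowest Dnaja1 level of the classes, level with macrophages within counting error.

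The mitochondrial pair was higher in Xbp1dIEC B and T cells and lower in Xbp1dIEC macrophages. Hspd1, the HSP60 ring subunit, was at 91.0 and 128 CPM in B-1 cells (log2 ratio 0.48, interval 0.30 to 0.69), at 87.2 and 128 CPM in B-2 cells (0.55, 0.39 to 0.71) and at 103 and 150.1 CPM in T cells (0.53, 0.17 to 0.91). In macrophages it was at 93.03 and 73.9 CPM (-0.33, -0.42 to -0.24). Hspe1, the HSP10 lid, was at 471 and 611 CPM in B-1 cells (0.38, 0.29 to 0.46), at 455 and 566 CPM in B-2 cells (0.31, 0.24 to 0.39) and at 324 and 291 CPM in macrophages (-0.16, -0.20 to -0.11). Its highest level in both libraries was in T cells, 575 and 666 CPM, where the Xbp1dIEC interval overlaps that of B-1 cells. Near-identical stretches exist elsewhere in the genome for 5 members: the last 300 bases of Hsp90aa1, Hspa8, Hspd1, Hspe1 and Dnaja1 match 1 to 4 other annotated genes over 98 bases or more at 98% identity or more, none of which is in the deposited gene list, so reads from such copies could add to or be lost from these 5. Hsph1, Hsp90ab1, Chordc1, Stip1 and Ptges3 have no such copy in the annotation used.

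Counted together, 5 of the 10 members were 1.5-fold or more higher in Xbp1dIEC B-1 cells (Hsph1, Chordc1, Hsp90aa1, Dnaja1 and Stip1), where 2.92% of all genes tested were; since the members were chosen on this contrast, nothing is read from that count. Stip1 was no longer past 1.5-fold with the mean of per-cell CPM (log2 ratio 0.48) or with B gates without Ighd, a choice made after the data were seen (0.51), and Dnaja1 was not after thinning (0.47). All 10 log2 ratios in B-1 cells were above 0, as were 49.1% of all genes, and their median was 0.60 against -0.01 over the 6071 genes tested. In B-2 cells Hsph1 alone passed 1.5-fold (background 1.20%), all 10 ratios were above 0 (background 40.2%), and the median was 0.41 against -0.06. In T cells Hsph1 alone passed (background 4.86%), 9 of 10 were above 0 (49.1%), and the median was 0.31 against -0.01. In Cd209a cells Hsph1 alone passed (5.50%), 9 of 10 were above 0 (42.6%), and the median was 0.14 against -0.07. In macrophages Hsph1 alone passed (0.143%), only Hsph1, Chordc1 and Dnaja1 were above 0 (35.2%), and the median was -0.11, near the -0.07 of all 6300 genes tested. No member was 1.5-fold or more lower in any class where it was tested, where 2.37% of all genes were in B-1 cells, 1.74% in B-2 cells, 5.79% in T cells, 7.78% in NK cells, 11.0% in Cd209a cells and 1.35% in macrophages. The summed level of the 10 genes was 3797 and 4740 CPM in B-1 cells, 3846 and 4507 CPM in B-2 cells, 4945 and 5411 CPM in T cells, and 3099 and 2868 CPM in macrophages.

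NK cells could be read for 5 members only, as Hsph1, Hspd1, Chordc1, Stip1 and Ptges3 fell short of 30 UMIs over both libraries. Hspe1 was at 267 and 412 CPM (log2 ratio 0.63, interval -0.21 to 1.495) and was the 1 member past 1.5-fold, where 9.58% of the 668 genes tested in NK cells were. Hsp90ab1 was at 812 and 1209.7 CPM (0.57, 0.10 to 1.06) and Hspa8 at 1599 and 2033 CPM (0.35, 0.00 to 0.70). All 5 ratios were above 0 (background 54.8%). Those of Hsp90aa1 (0.22, -0.48 to 0.93) and Dnaja1 (0.54, -0.27 to 1.38) have intervals that include 0. With stricter gates, at 16 WT and 14 Xbp1dIEC cells, Dnaja1 was at -0.58, Hsp90aa1 at -0.09 and Hspa8 at -0.02. Hsp90ab1 and Hspe1 stayed above 0 there. The 5 markers of the Cd209a class, which include class II genes, summed to 7642 CPM in WT and 283 CPM in Xbp1dIEC NK cells; their part in these ratios was not tested.

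**Figure D2:**
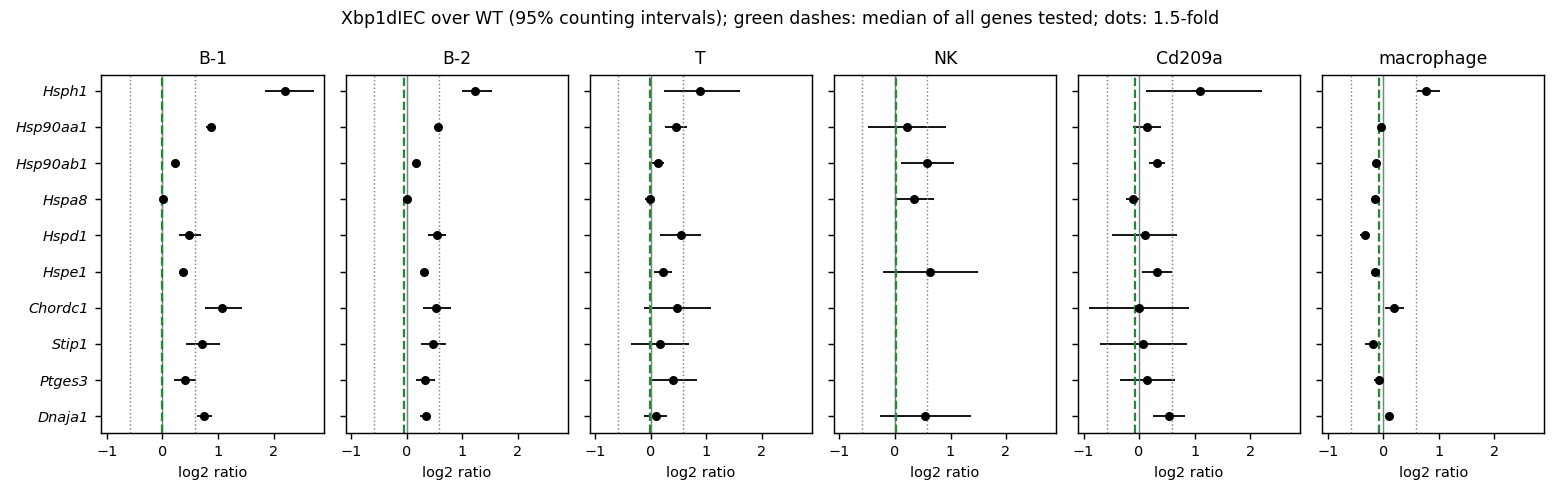
Log2 ratios of Xbp1dIEC over WT for the 10 members (rows) in the 6 classes (panels), with 95% counting intervals; dotted lines mark 1.5-fold in either direction and green dashes the median of all genes tested in the class. Hsph1 reaches 2.20 in B-1 cells, the members' median falls from 0.60 in B-1 cells to -0.11 in macrophages, and members with too few counts in NK cells are not drawn.

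In B-1 cells the shares of cells with a UMI were higher in Xbp1dIEC for Hsph1, Hsp90aa1 and Dnaja1, as the levels were, though the thinned intervals of Dnaja1 overlap. With each cell thinned to 2000 UMIs, Hsph1 was detected in 17 of 350 WT B-1 cells (4.86%, Clopper-Pearson interval 2.85 to 7.66) and in 79 of 561 Xbp1dIEC B-1 cells (14.1%, 11.3 to 17.2); without thinning the shares were 13.7% and 42.6%, at median depths of 8226 and 8853 UMIs per cell. Hsp90aa1 was detected in 47.1% (41.8 to 52.5) and 64.0% (59.9 to 68.0) of thinned B-1 cells and in 86.6% and 93.4% of unthinned ones. Dnaja1 was detected in 33.4% (28.5 to 38.6) and 42.1% (37.9 to 46.3) of thinned B-1 cells, and Hspa8 in 89.1% and 90.02%. In macrophages the thinned shares for Hsph1 were 2.75% (2.18 to 3.43) and 4.58% (3.83 to 5.43), which do not overlap. Those for Hsp90aa1 were 38.1% and 38.4%, from which no order is read. None of these classes is known to lack the 10 genes, so the share that free RNA gives could not be measured here.

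Per cell, the middle of the distribution as well as its upper end was higher in Xbp1dIEC B cells. Of 2000 UMIs per cell, the 10 members together took a median of 7 in WT and 9 in Xbp1dIEC B-1 cells. The upper 10% of B-1 cells began at 12.1 in WT and 16 in Xbp1dIEC. At the lower end the 10th percentile was 4 in both libraries, though 18% of WT and 10.3% of Xbp1dIEC B-1 cells had 4 or fewer. In B-2 cells the 10th percentile was also 4 in both, and 17.0% and 15.9% had 4 or fewer. B-2 cells had medians of 7 and 9, T cells 9 and 10, NK cells 6 and 9 and Cd209a cells 7 and 8.5. Macrophages went the other way, with medians of 6 and 5 and means of 5.93 and 5.61 UMIs. The cell with the most had 26 in WT and 37 in Xbp1dIEC B-1 cells.

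**Figure D3:**
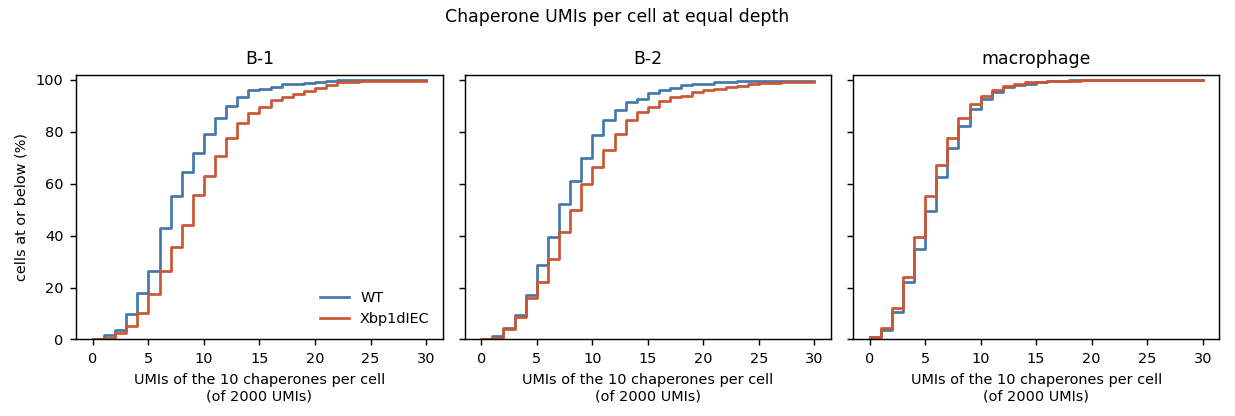
Share of cells (y axis, %) at or below a given number of UMIs of the 10 chaperone genes (x axis) after every cell was thinned to 2000 UMIs, for B-1 cells, B-2 cells and macrophages in the WT and the Xbp1dIEC library. The Xbp1dIEC curve lies to the right in B-1 and B-2 cells, with medians of 9 against 7, and slightly to the left in macrophages, with 5 against 6.

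B-1 cells were placed in 2 expression states by which of 2 gene sets had more UMIs, and the proportions differed between the libraries. In all, 190 WT and 192 Xbp1dIEC cells had more UMIs of Ahnak2, Phgdh and Ass1. Another 105 and 287 had more of Fbxw13, Prkar2b and Fgd2. Cells with equal UMIs of both sets were in neither state. Hsph1, Hsp90aa1, Dnaja1 and Chordc1 were higher in Xbp1dIEC in each state. Hsph1 was at 12.9 and 54.1 CPM in the Ahnak2 state (log2 ratio 1.99, interval 1.44 to 2.76) and at 19.4 and 89.3 CPM in the Fbxw13 state (2.14, 1.53 to 2.95). Hsp90aa1 had log2 ratios of 1.01 and 0.76 in the 2 states, Dnaja1 0.97 and 0.61, and Chordc1 1.16 in both. Hspa8 was at 1357 and 1508 CPM in the Ahnak2 state (0.15, 0.08 to 0.23) and at 1172 and 1141 CPM in the Fbxw13 state (-0.04, -0.13 to 0.06). Within the Xbp1dIEC library Hsph1 was higher in the Fbxw13 than in the Ahnak2 state (0.71, 0.40 to 1.05), and Hspa8 was lower (-0.40, -0.47 to -0.33). In the WT library the same ratios were 0.56 for Hsph1 (-0.35 to 1.52) and -0.21 for Hspa8 (-0.31 to -0.11).

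The share of cells with 5% or more mitochondrial UMIs moved with genotype in B cells and macrophages: it was 9.14% and 27.5% of B-1 cells, 3.78% and 14.5% of B-2 cells and 5.93% and 14.4% of macrophages, but 1.12% and 0.465% of T cells. Among B-1 cells under 5%, Hsph1 was at 13.7 and 66.4 CPM, a log2 ratio of 2.19 against 2.20 in all B-1 cells, and Hsp90aa1 had 0.89 against 0.87. Among the 32 WT and 154 Xbp1dIEC B-1 cells at 5% or more, Hsph1 was at 33.3 CPM, from 8 UMIs, and 92.2 CPM (1.44, 0.45 to 2.71). The part of those cells in the member ratios was not tested. B-2 cells under 5% gave Hsph1 a log2 ratio of 1.06 against 1.23 in all B-2 cells. With the B-2 gate set by Fcer2a and Cr2 alone, a choice made after the data were seen, the ratio of Hsph1 in B-2 cells was 0.77 (0.29 to 1.29), at 35.5 and 61.4 CPM.

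**Figure D4:**
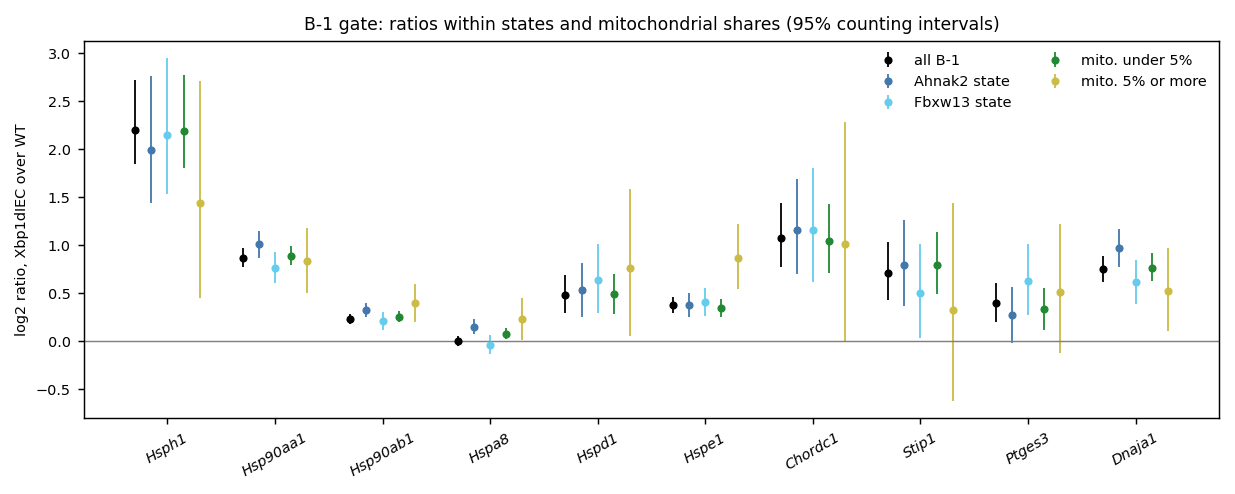
Log2 ratios of Xbp1dIEC over WT for the 10 members in all B-1 cells, in the 2 B-1 states and in B-1 cells under or at 5% or more mitochondrial UMIs, with 95% counting intervals. Hsph1 lies between 1.44 and 2.20 in these groups, Hsp90aa1 between 0.76 and 1.01, and Hspa8 between -0.04 and 0.23.

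In macrophages cell division went with some members and not with others. Cells with 2 or more UMIs of 8 cell cycle genes after thinning were 189 of 2800 in WT (6.75%) and 82 of 2729 in Xbp1dIEC (3.005%). Hspa8 was at 2234 CPM in cycling and 907 CPM in other WT macrophages (log2 ratio 1.30, interval 1.26 to 1.34), and at 2559 and 860.0 CPM in Xbp1dIEC (1.57, 1.51 to 1.63). Hsp90aa1, Hsp90ab1, Hspd1 and Ptges3 were also higher in cycling cells of both libraries, with log2 ratios between 0.43 and 0.82. Dnaja1 was lower in cycling cells, by a log2 ratio of -0.59 in WT and -0.77 in Xbp1dIEC, and Hsph1 had intervals that include 0. With cycling cells left out, the ratio between libraries in macrophages was 0.78 for Hsph1, 0.01 for Hsp90aa1, -0.08 for Hspa8 and -0.26 for Hspd1, against 0.77, -0.04, -0.15 and -0.33 with them.

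Relative to macrophages of the same library, the B-1 level was higher in Xbp1dIEC than in WT for each of the 10 members. Hsph1 was 1.18-fold the macrophage level in WT B-1 cells (log2 ratio 0.24, interval -0.19 to 0.69) and 3.19-fold in Xbp1dIEC (1.67, 1.53 to 1.91). For Hsp90aa1 these ratios were 1.22-fold and 2.30-fold, for Chordc1 1.34-fold and 2.47-fold, for Stip1 1.04-fold and 1.92-fold, and for Hspa8 1.24-fold and 1.37-fold. Ptges3 was below the macrophage level in WT B-1 cells (log2 ratio -0.29, interval -0.48 to -0.12) and above it in Xbp1dIEC (0.19, 0.06 to 0.31). Over the 12 sums of class and library, the members did not all follow each other: the correlation of a member with the mean of the members, of which it is a part, ran from 0.33 for Stip1 and 0.48 for Ptges3 to 0.91 for Hsph1. Of 1955 other genes at 50 CPM or more, the 8 most like that mean were Zc3h15 (r = 0.86), Rab35 (0.85), Pik3cd (0.85), Pim1 (0.82), Dusp11 (0.79), Senp6 (0.78), Mycbp2 (0.77) and Slfn2 (0.77). These correlations describe 12 sums from 2 libraries that share depth and handling.

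Genes of the same network outside the 10 had ratios on both sides of 0 in B-1 cells. Of all genes tested there, 2.92% were 1.5-fold or more higher and 2.37% lower, the background for the list counts that follow. Of 12 other HSP90 co-chaperones, all tested, 1 was 1.5-fold or more higher (Cacybp, 117 and 177 CPM, log2 ratio 0.59) and none lower; the median was -0.01, as over all genes. Fkbp4, an immunophilin, was at 68.8 and 92.0 CPM (0.41) and Ahsa1, an activator of the HSP90 ATPase, at 93.1 and 115 CPM (0.31), whereas Cdc37, which brings kinases to HSP90, was at 170.2 and 133 CPM (-0.35). Of 14 HSP70 family members and exchange factors, 8 were tested and 2 were past 1.5-fold: St13, the HSP70-interacting protein HIP, at 101.1 and 164 CPM (0.69, 0.51 to 0.88), and Hspa1a, an inducible HSP70, at 6.23 and 22.3 CPM (1.69, 1.17 to 2.58). Hspa1a and Hspa1b are nearly identical, so their counts are uncertain; the list's median was 0.15. Of 19 J-domain genes, 17 were tested and 2 passed, Dnajb1, the inducible HSP40, at 47.5 and 87.1 CPM (0.86, 0.62 to 1.14) and Dnajc21 at 16.02 and 30.5 CPM (0.89, 0.48 to 1.39), around a median of -0.01.

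TRiC, prefoldin and mitochondrial proteostasis genes were mostly level or lower in B-1 cells. The cytosolic TRiC chaperonin and prefoldin had 13 of 14 genes tested and a median of -0.14. None was past 1.5-fold in either direction (background 2.92% higher and 2.37% lower). Cct4 was at 238 and 196 CPM (log2 ratio -0.28, interval -0.41 to -0.15). The mitochondrial proteostasis list had 7 of 8 tested, none past 1.5-fold and a median of -0.14, with Hspa9, the mitochondrial HSP70, at 59.6 and 55.3 CPM (-0.11). Of 6 small heat shock and disaggregation genes only Hspb11 passed the filter on low counts (-0.10). Hspb1, which encodes HSP27, was counted 2 times in WT and 48 times in Xbp1dIEC B-1 cells, a ratio whose counting interval runs from 1.83 to 6.85 on the log2 scale, and it was below the filter. Of 3 heat shock factors Hsf1 was tested, at 12.2 and 13.2 CPM (0.11, -0.44 to 0.70).

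Of 11 endoplasmic reticulum chaperones, another compartment's folding system, 10 were tested in B-1 cells; 3 were 1.5-fold or more higher in Xbp1dIEC (background 2.92%), all 10 had ratios above 0 (background 49.1%), and the median was 0.26. The intervals of Pdia3, Pdia4, Pdia6 and Dnajb9 include 0. Hspa5, the HSP70 of that compartment, was at 95.8 and 177 CPM (log2 ratio 0.88, interval 0.70 to 1.07), Sdf2l1 at 46.6 and 80.2 CPM (0.77) and Manf at 133 and 208 CPM (0.64). In macrophages the medians of the lists with 2 or more genes tested lay between -0.21 for endoplasmic reticulum chaperones and 0.09 for immediate early genes, around the -0.07 of all genes. Dnajc9 (31.8 and 17.9 CPM, -0.80) was the 1 list gene past 1.5-fold lower there (background 1.35%). Pdia6 was at 259 and 184 CPM (-0.50). Immediate early genes, which also rise when tissue is dissociated, had 11 of 19 tested in B-1 cells, 2 past 1.5-fold (Hspa1a and Jun, which was at 42.4 and 64.3 CPM), a median of 0.15 and a summed level of 2488 and 2648 CPM; Klf2 was at 1273 and 1295 CPM (0.03). Their part in the member ratios was not tested.

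**Figure D5:**
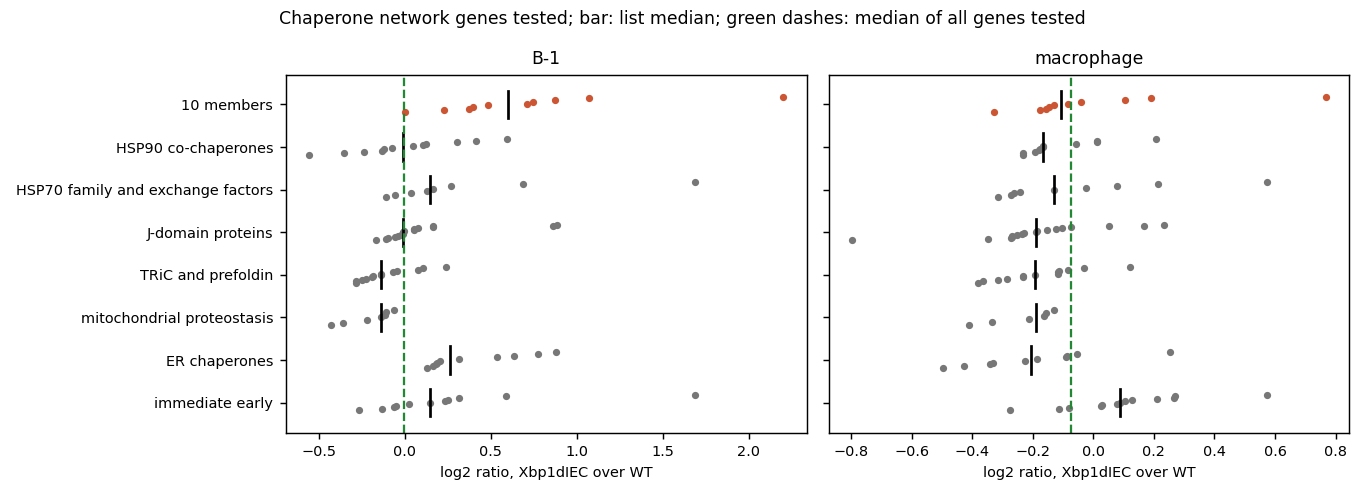
Log2 ratios of Xbp1dIEC over WT for the 10 members and the genes tested of 7 other lists (rows; each dot is 1 gene, short bars are list medians) in B-1 cells (left) and macrophages (right), with green dashes at the median of all genes tested. In B-1 cells the members' median is 0.60 and those of the other lists lie between -0.14 and 0.26; in macrophages the members' median is -0.11.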

How the data were processed

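The deposited values are counts per the file contents: whole-number UMIs per gene and cell barcode for 2 libraries, without normalization. Tools named in the submitters' processing notes are Seurat 2.3.0 and Cell Ranger 2.2.0, with mm10 as build. Which annotation and barcode filter were used is not stated there. The shallowest barcode had 2597 UMIs (WT) or 2485 (Xbp1dIEC). Cells needed at least 500 UMIs and 200 genes and a mitochondrial share below 10%, and doublets were called with scrublet in scanpy 1.11.5 at an expected rate of 5% (140 WT and 115 Xbp1dIEC barcodes, 2.26% and 1.85%).

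A lineage was called at 4 or more UMIs of its markers (3 for Cd209a) with 2 or fewer of every other lineage; B-1 and B-2 cells needed 2 or more UMIs of their own list and more than of the other. Another 479 WT and 598 Xbp1dIEC B cells passed neither B gate, and 652 and 389 cells carried 2 lineages; they were not used. Sums of UMIs over the cells of a class were divided by that class's total to give CPM. Log2 ratios have 1 CPM added and their intervals do not, so for genes near 1 CPM the value lies towards 0 within its interval. A gene was tested, meaning that it entered the counts of genes past 1.5-fold, at a mean of 10 CPM or more and 30 or more UMIs over both libraries. With 1 library per genotype no p-value was computed, and "past" means past that fold.

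The members, the other gene lists and the markers were chosen with earlier results of these data known. The plot of member log2 ratios by class shows all 10 members wherever they could be read, but the text leaves some ratios out. Those left out include Chordc1, Stip1 and Ptges3 in T cells, whose intervals include 0. The same holds for Hsp90aa1, Hspa8, Hspd1, Stip1 and Ptges3 in Cd209a cells. Ratios of Hsp90ab1 and Hspe1 in T cells, Hspe1 in Cd209a cells and Chordc1 in macrophages were also left out, with intervals above 0. Of the other lists, examples are given beside each list's counts. The 8 genes most like the members were ranked by correlation. The calculation was tested on simulated counts. Promoters are RefSeq windows, copies were searched with BLAST 2.17.0 in GENCODE M21 transcripts (GRCm38), and edgeR 4.0.16 gave the TMM factors of an alternative scaling. Cct6a has no row in the gene list. Alternatives changed the gates, filters, doublet step, thinning, scaling, added CPM and fold.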

Additional observations from a re-analysis of the deposited data

Results flagged for a closer look

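For 5 members the ratio of Xbp1dIEC over WT was below 1 in macrophages while it was above 1 in another class, with counting intervals that exclude 0 on both sides. Hspd1 had a log2 ratio of -0.33 in macrophages and 0.55 in B-2 cells, Stip1 -0.18 and 0.71 in B-1 cells, and Hspe1 -0.16 and 0.38 in B-1 cells. Hsp90ab1 had -0.13 in macrophages and 0.32 in Cd209a cells, and Ptges3 -0.0836 and 0.40 in B-1 cells. With cycling cells left out, the macrophage intervals of Stip1 (-0.13, -0.28 to 0.01) and Ptges3 (-0.05, -0.13 to 0.03) included 0. Those of Hspd1, Hspe1 and Hsp90ab1 did not. The median of all genes tested in macrophages was -0.07. With 1 library per genotype the difference between classes was not tested.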

How the results depend on the processing

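Of 700 values of single members under other settings, 645 stayed within their counting interval, 55 lay outside it and 0 of those past 1.5-fold changed sign. Some of the 645 could not move, because a setting left the cells of a class unchanged, as in NK cells with doublets kept. All 70 medians over the members lay between the medians of the members' lower and upper limits, which is not a counting interval of the median. Hsph1 in B-1 cells ran from 1.70 (thinned to 2000 UMIs) to 2.28 on the log2 scale. In NK cells Dnaja1, Hsp90aa1 and Hspa8 went from above 0 to -0.58, -0.09 and -0.02 with stricter gates. Hsp90aa1 in macrophages changed sign, from -0.04 to 0.03 with TMM scaling and to 0.02 without immunoglobulin, mitochondrial and ribosomal protein genes in the total, scalings that put the median of all genes there at -0.003 and -0.015 instead of -0.072.

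The number of members past 1.5-fold moved where it rested on single genes. In B-1 cells 5 became 2 at 2-fold, and 4 with the mean of per-cell CPM and with gates without Ighd, where Stip1 fell to 0.48 and 0.51; Dnaja1 fell to 0.47 after thinning, where 6 passed. In B-2 cells 1 became 2 with stricter gates, 2 after thinning, 4 without those genes in the total, 4 with TMM and 3 with gates without Ighd, an alternative added after the data were seen. In T cells 1 became 2 with stricter gates, 3 after thinning and 0 at 2-fold. In NK cells 1 became 2 with looser gates, 4 after thinning, and 0 with the mean of per-cell CPM, with TMM and at 2-fold. In Cd209a cells 1 became 2 with stricter gates, the mean of per-cell CPM, the smaller total and TMM, and 0 with looser gates. In macrophages 1 became 0 with 10 CPM added and at 2-fold. The cause of these moves was not tested. No paired analysis was possible because each genotype has 1 library, numbered only by order.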
